A study of Mus musculus with 6 samples.

Results

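The enzymes that cleave and rebuild phospholipids were followed in long-term CML (LT-CML) stem cells with and without the lysophospholipase D gene Gdpd3. The set holds the protein_coding genes of the expression table whose names begin with Pla2g, Pnpla, Lpcat, Agpat, Mboat, Lpin or Pld and a number, or with Lypla, which gave 55 of 36976 genes. They fall into 8 name families, with 20 Pla2g, 7 Pnpla, 3 Lypla, 5 Lpcat, 7 Agpat, 4 Mboat, 3 Lpin and 6 Pld genes. A further gene of the same name pattern, Pla2g2a, is listed as a processed transcript and was left out.

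RNA was measured in 6 SMART-Seq libraries, 3 of Gdpd3+/+ and 3 of Gdpd3-/- LT-CML stem cells, to ask how the loss of Gdpd3 alters gene expression in these cells. Both groups came from C57BL/6 mice that carry SCL-tTA and TRE-BCR-ABL1 (the tet-CML model), in which the human oncogene is switched on in haematopoietic stem and progenitor cells when doxycycline is withdrawn. It was withdrawn at 5 weeks of age, and cells were taken 5 weeks later by sorting CD150+CD48-CD135- cells of the LSK (Lineage-Sca-1+cKit+) compartment. The Gdpd3-/- mice carry a small Cas9-made deletion near the start of the coding sequence. The wild-type animals were 22 males and 12 females, against 5 of each sex for the knockout, more mice than libraries, so animals were pooled in at least some libraries, and the mixture of sexes differed between the groups. The number of mice behind each library is not given. The sex of the animals behind each library is not given in the sources used here. The study states that mice were matched for age and sex, and the part of sex in any difference was not tested. The study describes the samples of a group as biologically independent, and p-values measure the spread between these samples.

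Gdpd3 itself was read first. Gdpd3 was at 7.3, 3.29 and 2.95 FPKM in the Gdpd3+/+ and 0.11, 0.0129 and 0.681 FPKM in the Gdpd3-/- libraries. All 3 Gdpd3-/- values were under the lowest Gdpd3+/+ value, and Gdpd3+/+ replicate 1 was well above the other Gdpd3+/+ libraries. Its log2 fold change of -4.0 (SE 0.77, 95% interval -5.85 to -2.16, limma adjusted p = 0.0588) missed the threshold of 0.05. The size of the Gdpd3 fold change depended on the pseudocount of 0.1 added to FPKM, and was -2.07 with 1 and -5.07 with 0.01. It was -2.44 without both Gdpd3-/- replicates 5 and 6, a set chosen after seeing the data. The adjusted p was 0.0481 among genes with a mean of at least 1 FPKM, 0.0385 among protein_coding genes and 0.0106 without Gdpd3-/- replicate 7, and over the other alternatives it lay above 0.05 and reached 0.269. The exons of Gdpd3 share 190 bases with Gm9967 on the opposite strand, and the strand setting used in counting is not stated. FPKM are fragments scaled to gene length and to the number of mapped fragments. Levels are listed in the order of replicates 1, 2 and 3 for Gdpd3+/+ and of replicates 5, 6 and 7 for Gdpd3-/-. The spacing of the FPKM values gave depths of 49.8, 62.8 and 61.3 M (mega) fragments on genes for the Gdpd3+/+ libraries and 21.3, 36.4 and 25.1 M for the Gdpd3-/- libraries. The Gdpd3-/- libraries were thus shallower, and 1 fragment on a gene of 1 kilobase was worth 0.0159 to 0.0201 FPKM in the Gdpd3+/+ and 0.0275 to 0.0469 FPKM in the Gdpd3-/- libraries.

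As background, a phospholipid carries a pair of fatty acyl chains on a glycerol backbone. In the de novo (Kennedy) route, glycerol-3-phosphate acyltransferases and then AGPAT enzymes add the chains to make lysophosphatidic acid and phosphatidic acid, and lipins remove the phosphate to give diacylglycerol. In the Lands cycle, phospholipases A release a chain and leave a lysophospholipid, which LPCAT and MBOAT enzymes reacylate or lysophospholipases cleave further. Phospholipases D remove the head group, and Gdpd3 does so from lysophospholipids. In white blood cells the chain released by phospholipase A2 is often arachidonic acid, the precursor of prostaglandins and leukotrienes.

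The gate was checked against its own markers. Slamf1, which encodes CD150, was at 11.7, 10.1 and 10.3 FPKM in the Gdpd3+/+ libraries and 5.41, 13.2 and 7.71 in the Gdpd3-/- libraries, and Kit was at 128, 125 and 131 FPKM in the Gdpd3+/+ libraries and 108, 108 and 136 in the Gdpd3-/- libraries. Ly6a (Sca-1) was at 395, 342 and 410 FPKM in the Gdpd3+/+ libraries and 563, 360 and 408 in the Gdpd3-/- libraries. These markers were therefore present in all 6 libraries, and their genotypes overlapped. Flt3, which encodes CD135 and should be low in this gate, was at 11, 10.6 and 9.8 FPKM in the Gdpd3+/+ libraries and 46.5, 37.8 and 36.8 in the Gdpd3-/- libraries, with a log2 fold change of 1.93 (SE 0.13, limma adjusted p = 0.00562). Flt3 rose in all 3 Gdpd3-/- libraries, and its adjusted p was 0.0705 without Gdpd3+/+ replicate 1 and 0.0502 without Gdpd3+/+ replicate 2. Cd48, also selected against by its protein, was at 39.8, 41.2 and 44.8 FPKM in the Gdpd3+/+ libraries and 51.6, 54 and 92.2 in the Gdpd3-/- libraries, with a log2 fold change of 0.60 (SE 0.23, limma adjusted p = 0.188) and no overlap between genotypes. The size of the Cd48 fold change rested on Gdpd3-/- replicate 7. It was 0.33 without that library and 1.14 without both replicates 5 and 6, a set chosen after seeing the data. The RNA of both excluded markers was thus higher in the Gdpd3-/- libraries, and whether the sorted cells differed in makeup was not tested. In bulk RNA, fewer cells of a type and less RNA per cell cannot be told apart.

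Transcripts of cells that the gate should remove were also seen and differed between libraries. The 16 skeletal muscle genes summed to 1379, 965 and 933 FPKM in the Gdpd3+/+ libraries and 11935, 17127 and 2289 FPKM in the Gdpd3-/- libraries, led by Acta1. All 16 lay higher in every Gdpd3-/- library than in any Gdpd3+/+ library. Of all genes with a mean of at least 1 FPKM, 28.2 percent did. All 16 had an unadjusted p under 0.05 in limma, against 22.2 percent of all genes. None was at 0, and none passed an adjusted p of 0.05, with Gdpd3-/- replicates 5 and 6 far above replicate 7. The 10 neutrophil genes, led by S100a8, summed to 27292, 23323 and 25595 FPKM in the Gdpd3+/+ libraries and 13083, 6299 and 7226 FPKM in the Gdpd3-/- libraries. The sum was thus lower in all 3 Gdpd3-/- libraries, as were 6 of the 10 genes, and 3 of the 10 (Camp, Ltf and Ngp) fell at an adjusted p under 0.05, beside 10.2 percent of all genes lower without overlap and 1.71 percent past the adjusted threshold. The 10 adipocyte genes summed to 33.3, 20.8 and 29 FPKM in the Gdpd3+/+ libraries and 147, 236 and 65.9 FPKM in the Gdpd3-/- libraries. That sum was carried by Car3 and Fabp4, while Adipoq was listed at 0 in Gdpd3-/- replicates 5 and 6. Of the 10 adipocyte genes, 2 lay higher and 0 lower without overlap, beside 28.2 and 10.2 percent of all genes.

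**Figure D1:**
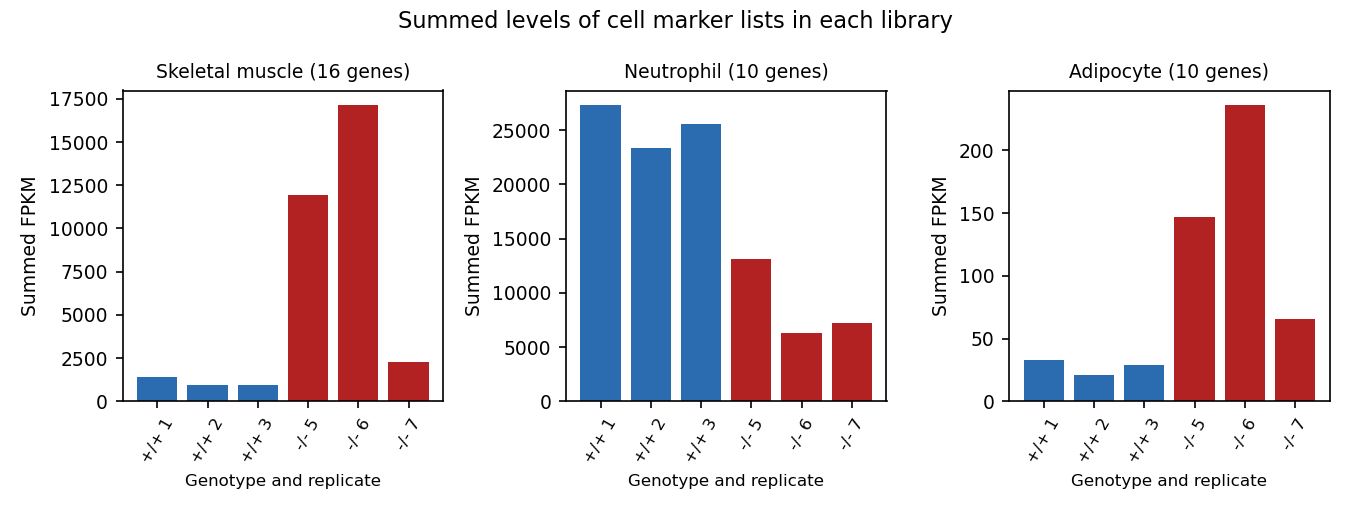
Summed FPKM (linear axes from 0) of 3 marker lists in each library, Gdpd3+/+ in blue and Gdpd3-/- in red. The muscle sum stands at 11935 and 17127 in Gdpd3-/- replicates 5 and 6 against 2289 in replicate 7, and the neutrophil sum is lower in each Gdpd3-/- library than in any Gdpd3+/+ library.

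Other lists were weaker or mixed. Eosinophil, basophil and mast cell genes, led by Prg2, summed to 2705, 2335 and 2982 in the Gdpd3+/+ and 1020, 1578 and 1950 in the Gdpd3-/- libraries, and Cpa3 of mast cells rose while the eosinophil gene Prg2 was at 1851, 1628 and 2016 FPKM in the Gdpd3+/+ libraries and 320, 806 and 1073 in the Gdpd3-/- libraries. The sum was thus carried by Prg2, while the median log2 fold change of the 10 genes was 0.40. Of these, 4 lay higher and 4 lower without overlap, beside 28.2 and 10.2 percent of all genes with a mean of at least 1 FPKM. An unadjusted p under 0.05 in limma was seen for 8 of them, against 22.2 percent of all genes. B and plasma cell genes, led by Igj, summed to 2451, 2292 and 2921 in the Gdpd3+/+ and 1128, 1076 and 1947 in the Gdpd3-/- libraries, and Xbp1 fell. Their median log2 fold change was -0.98, with 1 of 9 genes higher and 4 lower without overlap, beside the same shares of all genes. Monocyte and macrophage genes, led by Lyz2, summed to 1372, 1116 and 1246 in the Gdpd3+/+ and 1270, 958 and 1050 in the Gdpd3-/- libraries, and Vcam1 fell. The median log2 fold change of the monocyte list was 0.17. It had 1 of 10 genes higher and 1 lower without overlap, beside the same shares of all genes (28.2 and 10.2 percent). T and NK cell genes, led by Nkg7, summed to 392, 436 and 466 in the Gdpd3+/+ and 160, 257 and 327 in the Gdpd3-/- libraries, with no gene past the test. Stromal and endothelial genes, led by Pecam1, summed to 20.2, 18.5 and 17.6 in the Gdpd3+/+ and 29.1, 22 and 26.3 in the Gdpd3-/- libraries, and Pdgfrb rose. Erythroid genes, led by Hba-a1, summed to 3625, 2909 and 2523 in the Gdpd3+/+ and 1646, 2607 and 3692 in the Gdpd3-/- libraries, and megakaryocyte genes, led by Pf4, to 267, 376 and 372 in the Gdpd3+/+ and 239, 570 and 251 in the Gdpd3-/- libraries, and neither list had a gene past the test. Of 10 erythroid genes, 1 lay higher and 3 lower without overlap. Of 10 megakaryocyte genes and of 10 T and NK cell genes, 0 lay higher and 1 lower, and of 10 stromal genes 1 higher and 0 lower. The shares of all genes are again 28.2 and 10.2 percent. The eosinophil, B cell, monocyte and stromal lists each had 1 gene past the adjusted threshold, beside 1.71 percent of all genes. No gene of these lists was at 0 in all 6 libraries.

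Transcripts of most of the 55 genes were detected in the libraries of sorted cells. Transcripts of other cell types were also present, as given above, and the source of the RNA of each gene was not tested. In all, 36 genes were above 0 in all 6 libraries, 34 had a mean of at least 1 FPKM, and Pla2g4d, Pla2g2c and Pla2g12b were listed at 0 throughout. The most abundant were Pla2g12a, Agpat2, Pnpla2 and Lpcat3, with means of 36.2 to 42.4 FPKM, a range in which the libraries of these genes overlapped. Each lay above 93.8 to 94.7 percent of all genes in mean FPKM. Together the 55 genes made up a mean of 0.116 percent of the summed FPKM of protein_coding genes. Every name family had at least 1 gene with a mean above 5 FPKM.

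**Figure D2:**
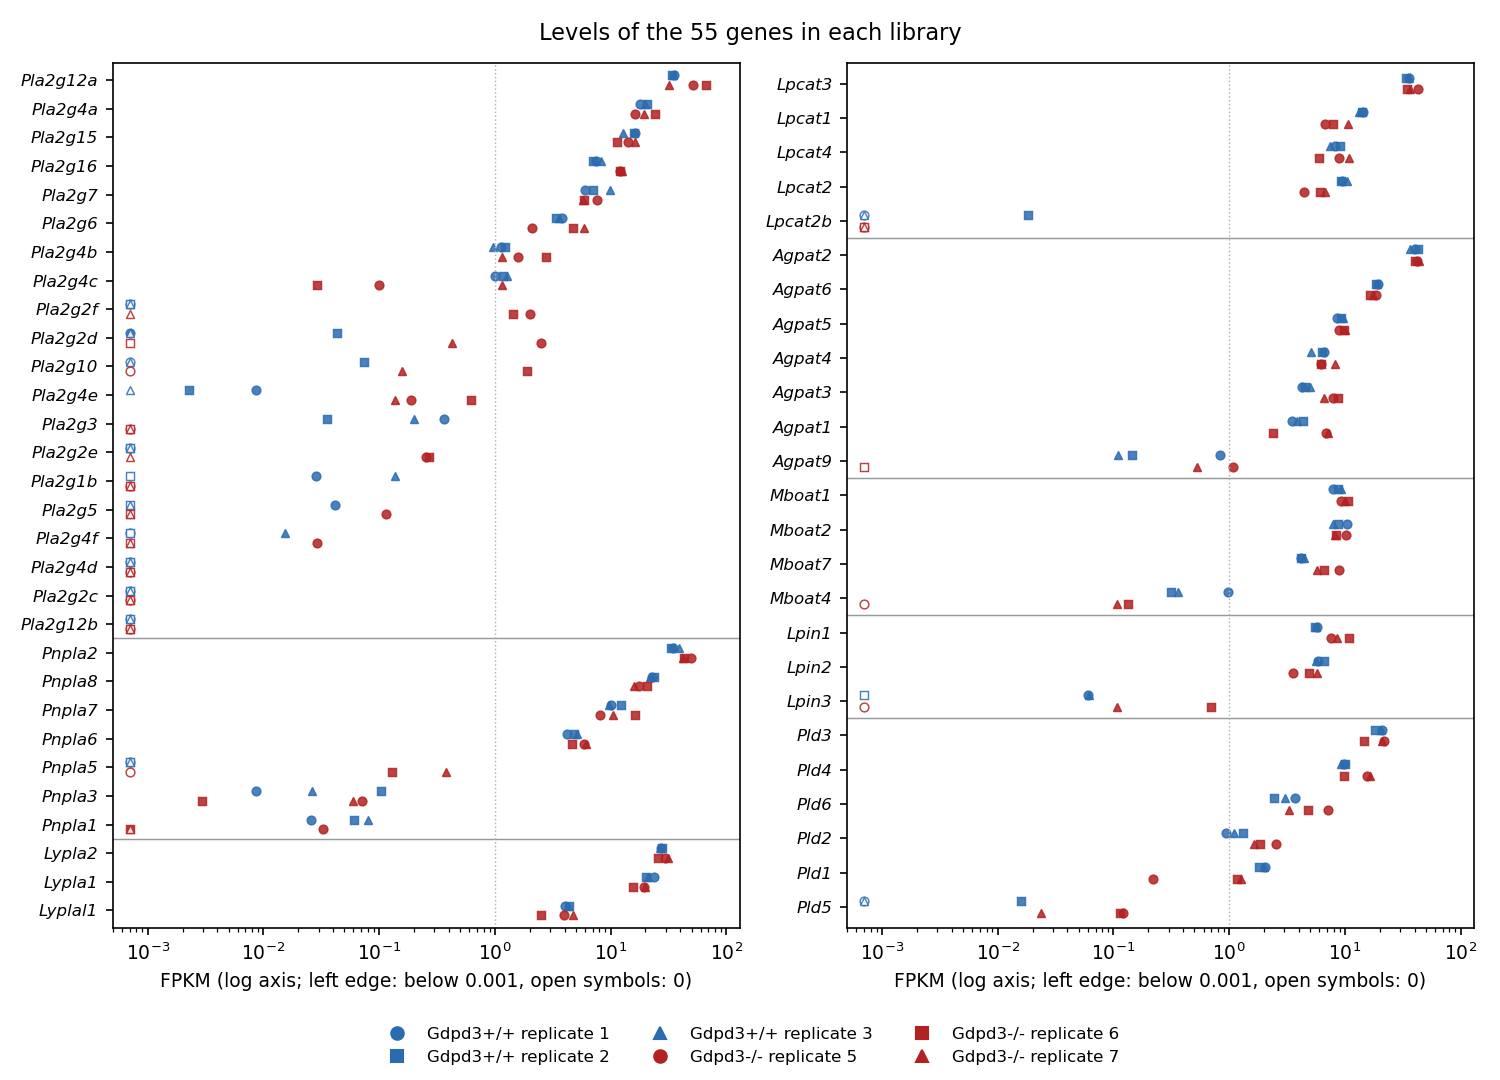
FPKM of each of the 55 genes on a log axis, with 1 symbol per library and the genes ordered by mean within each name family. Open symbols mark values of 0, filled symbols at the left edge values below 0.001, and the dotted line 1 FPKM. The 34 genes with a mean of at least 1 FPKM lie at and to the right of that line apart from single low values, and the widest scatter is among the secreted Pla2g genes.

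No gene of the 55 passed the test between genotypes. Of the 45 genes with a mean of at least 0.05 FPKM, 0 had an adjusted p under 0.05 in limma, against 422 of 24689 genes in the whole table (1.71 percent, 270 higher and 152 lower). The split of the whole table turned to 112 higher and 254 lower under TMM scaling and to 119 and 206 under quantile normalization. At an unadjusted p under 0.05 there were 13 of 45 (28.9 percent), 8 higher and 5 lower, against 22.2 percent of all genes. The 13 include Pla2g2f, Pla2g4e and Pla2g3, which met the filter on mean FPKM through the genotype in which they were high. Voom on estimated fragment counts, added after seeing the data, called 2 of the 45, Pla2g16 and Pla2g4e, beside 906 of 24689 genes. Pla2g4e met the filter on mean FPKM through the Gdpd3-/- libraries. Among the 34 genes with a mean of at least 1 FPKM, 6 lay higher in every Gdpd3-/- library than in any Gdpd3+/+ library (17.6 percent), against 28.2 percent of all genes at that level. A further 5 lay lower in every Gdpd3-/- library (14.7 percent), against 10.2 percent of all genes. The other 23 overlapped. The direction of each of the 11 was the same in all 17 alternative settings. For genes picked for no overlap, leaving out libraries or changing the filter, pseudocount, trend or weights cannot turn the direction. Only TMM scaling, quantile normalization and voom could have turned it.

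Gdpd3-/- replicate 7 lay nearest to the Gdpd3+/+ libraries for many of these genes, and the count rested on it. Without it, 9 of 45 genes passed, 6 higher (Pla2g12a, Pla2g2f, Pla2g2e, Mboat7, Agpat3 and Pla2g16) and 3 lower (Pla2g4c, Lpcat2 and Lpcat1), where 3413 of 24056 genes passed in the whole table. Of these, Pla2g2f and Pla2g2e were at 0 in every Gdpd3+/+ library and met the filter on mean FPKM through Gdpd3-/- replicates 5 and 6 alone. Without Gdpd3-/- replicate 6 Pld4 alone passed, 1 of 44 genes, beside 462 of 23839 genes in the whole table. Without Gdpd3+/+ replicate 1, 2 or 3, or Gdpd3-/- replicate 5, the count was 0. Spread was wider in Gdpd3-/-, where the median coefficient of variation of the 34 genes was 19.5 percent against 7.62 percent in Gdpd3+/+. Over all genes at that level it was 23.6 and 8.65 percent. Over all genes, 0, 1 and 21 passed without Gdpd3+/+ replicates 1, 2 and 3 in turn, and 187 without Gdpd3-/- replicate 5, so the calls there rest on each of these libraries.

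The median log2 fold change of the 45 genes was 0.12, beside 0.24 for all genes tested. TMM scaling moved the median of all genes to 0.042 and quantile normalization to -0.0063, so changes are also given relative to it. Relative to the median of all genes, 18 of the 45 lay above and 27 below. For the 34 genes with a mean of at least 1 FPKM the median was 0.073, beside 0.14 for all genes at that level. The 95 percent interval of a gene of this group reached a median of 0.45 log2 units to either side.

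**Figure D3:**
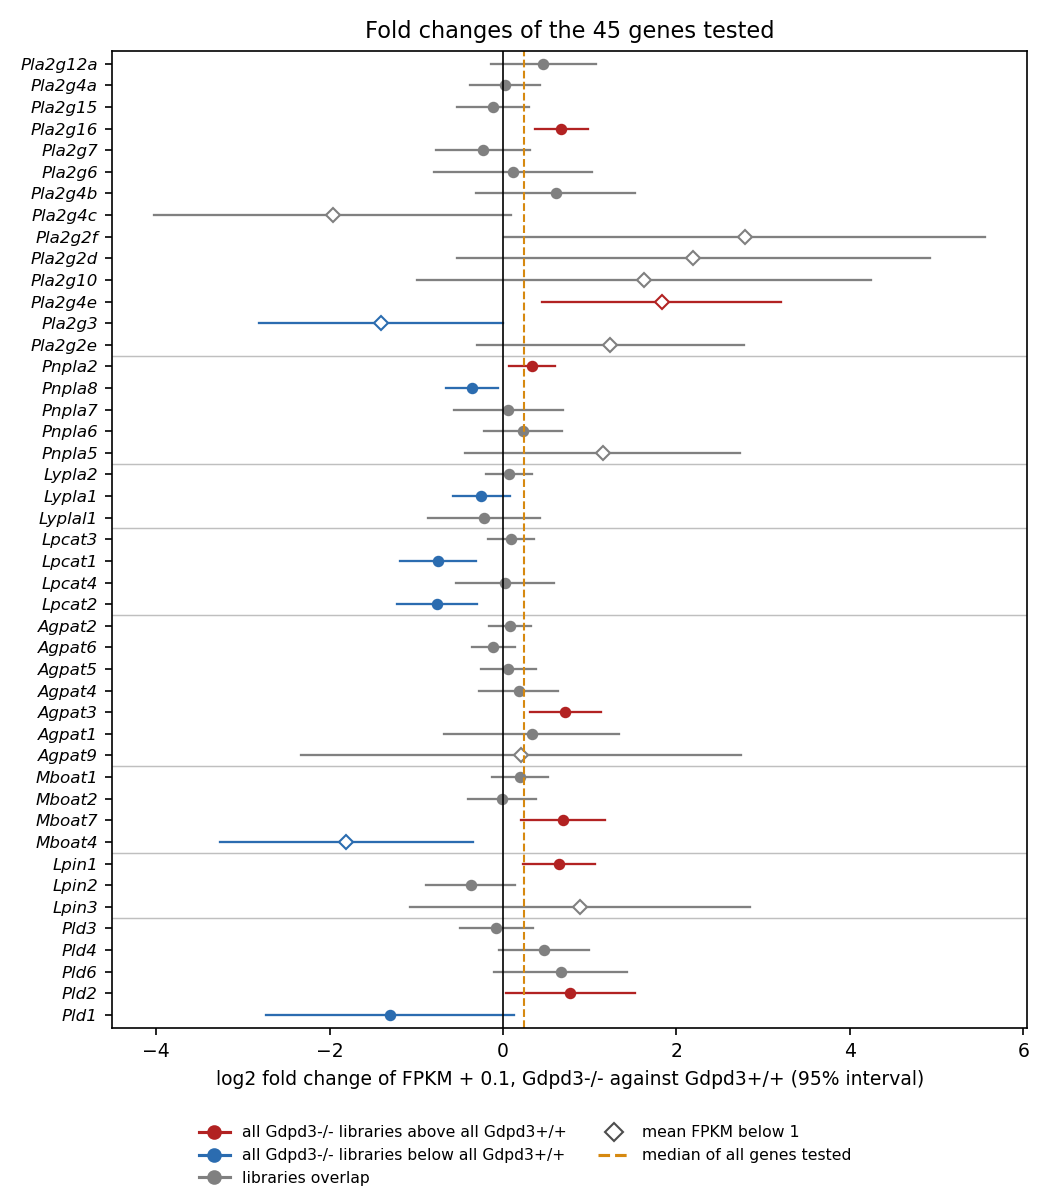
Log2 fold change (x axis, FPKM + 0.1, Gdpd3-/- against Gdpd3+/+) with its 95% interval for the 45 genes tested, in their name families. Red and blue mark genes whose genotypes did not overlap, open diamonds genes with a mean below 1 FPKM, and the dashed line the median of all genes at 0.24. Lpcat1 and Lpcat2 lie at -0.75 and -0.76, and Pla2g16 has the narrowest interval among the red genes with a fold change above 0.5.

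The Lpcat family reacylates lysophospholipids and split between its members. Lpcat1, an acyltransferase known for saturated phosphatidylcholine in lung and other tissues, was at 14.3, 14.2 and 13.3 FPKM in the Gdpd3+/+ and 6.69, 7.89 and 10.5 FPKM in the Gdpd3-/- libraries. All 3 Gdpd3-/- libraries were lower, and replicate 7 was the highest of them. Mean FPKM was 13.9 ± 0.509 for Gdpd3+/+ and 8.37 ± 1.96 for Gdpd3-/- (SD, n = 3 each), with a log2 fold change of -0.75 (SE 0.18, 95% interval -1.19 to -0.31, limma adjusted p = 0.0891), or -0.99 relative to the median of all genes. Lpcat2, which reacylates lysophosphatidylcholine and makes platelet-activating factor in inflammatory cells, was at 9.46, 9.17 and 10.5 FPKM in the Gdpd3+/+ and 4.46, 6.07 and 6.75 FPKM in the Gdpd3-/- libraries. Its genotypes did not overlap either, with a log2 fold change of -0.76 (SE 0.19, 95% interval -1.22 to -0.30, limma adjusted p = 0.0917), or -1.0 relative to that median. Neither passed the threshold. Without Gdpd3-/- replicate 7 both did, Lpcat1 with a log2 fold change of -0.93 (limma adjusted p = 0.0156, range over the alternatives 0.0156 to 0.306) and Lpcat2 with a log2 fold change of -0.88 (limma adjusted p = 0.0375, range over the alternatives 0.0375 to 0.334). Beside these genes, the neutrophil sum given above was also lower in each Gdpd3-/- library, and its part in their levels was not tested.

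Lpcat3, which places polyunsaturated chains into phospholipids, was the most abundant of the family. It was at 35.4, 33.7 and 35.9 FPKM in the Gdpd3+/+ libraries and 42.3, 34.1 and 36.1 in the Gdpd3-/- libraries, with a log2 fold change of 0.095 (SE 0.11, limma adjusted p = 0.616). The genotypes overlapped, and the sign of its fold change turned under TMM scaling (-0.13) and quantile normalization (-0.031). Lpcat4 was at 8.16, 9.07 and 7.47 FPKM in the Gdpd3+/+ libraries and 8.82, 5.99 and 10.9 in the Gdpd3-/- libraries, with replicate 6 the lowest and replicate 7 the highest of all 6 libraries. Lpcat2b was seen only in Gdpd3+/+ replicate 2, at 0.0181 FPKM. The summed FPKM of the family was 67.3, 66.1 and 67.1 FPKM in the Gdpd3+/+ libraries and 62.3, 54 and 64.3 FPKM in the Gdpd3-/- libraries, lower in each Gdpd3-/- library. The Pla2g sum was higher in each Gdpd3-/- library, at 89.3, 90.2 and 91.9 FPKM in the Gdpd3+/+ libraries and 110, 133 and 95 FPKM in the Gdpd3-/- libraries, as was the Mboat sum, at 23.4, 22 and 22 FPKM in the Gdpd3+/+ libraries and 28.3, 25.5 and 24.2 FPKM in the Gdpd3-/- libraries, both of which overlapped under TMM scaling. The sums of the other 5 families overlapped. Under TMM scaling, applied to the sums after seeing the data, the Lpcat sum was still lower in each Gdpd3-/- library (means 72.2 for Gdpd3+/+ and 55.7 for Gdpd3-/-), as was the Lypla sum (57.6 and 47). There the Pla2g sums overlapped (97.7 and 104), and the Mboat sums overlapped with their direction turned (24.3 and 24.1).

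Within a library the share of a gene in its family does not depend on how libraries are scaled, and these shares were computed after seeing the data. Lpcat3 held 52.6, 51 and 53.4 percent in the Gdpd3+/+ libraries and 68, 63.1 and 56.2 percent in the Gdpd3-/- libraries of the summed Lpcat FPKM. Lpcat1 held 21.2, 21.4 and 19.9 percent in the Gdpd3+/+ libraries and 10.7, 14.6 and 16.4 percent in the Gdpd3-/- libraries. Lpcat2 held 14.1, 13.9 and 15.6 percent in the Gdpd3+/+ libraries and 7.15, 11.2 and 10.5 percent in the Gdpd3-/- libraries. For these 3 genes the genotypes did not overlap, with the share of Lpcat3 higher and those of Lpcat1 and Lpcat2 lower in Gdpd3-/-. Of the shares of all 55 genes in their families, 20 (36.4 percent) did not overlap, 10 higher and 10 lower, beside 28.2 and 10.2 percent of all genes with a mean of at least 1 FPKM whose levels lay higher and lower without overlap. That comparison is not like for like. The 55 include 21 genes with a mean below 1 FPKM, and shares were not computed for other genes. The 3 shares are tied to each other because they sum with Lpcat4 to nearly the whole. A two-sided exact permutation test of 3 libraries against 3 cannot give a p below 0.1.

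**Figure D4:**
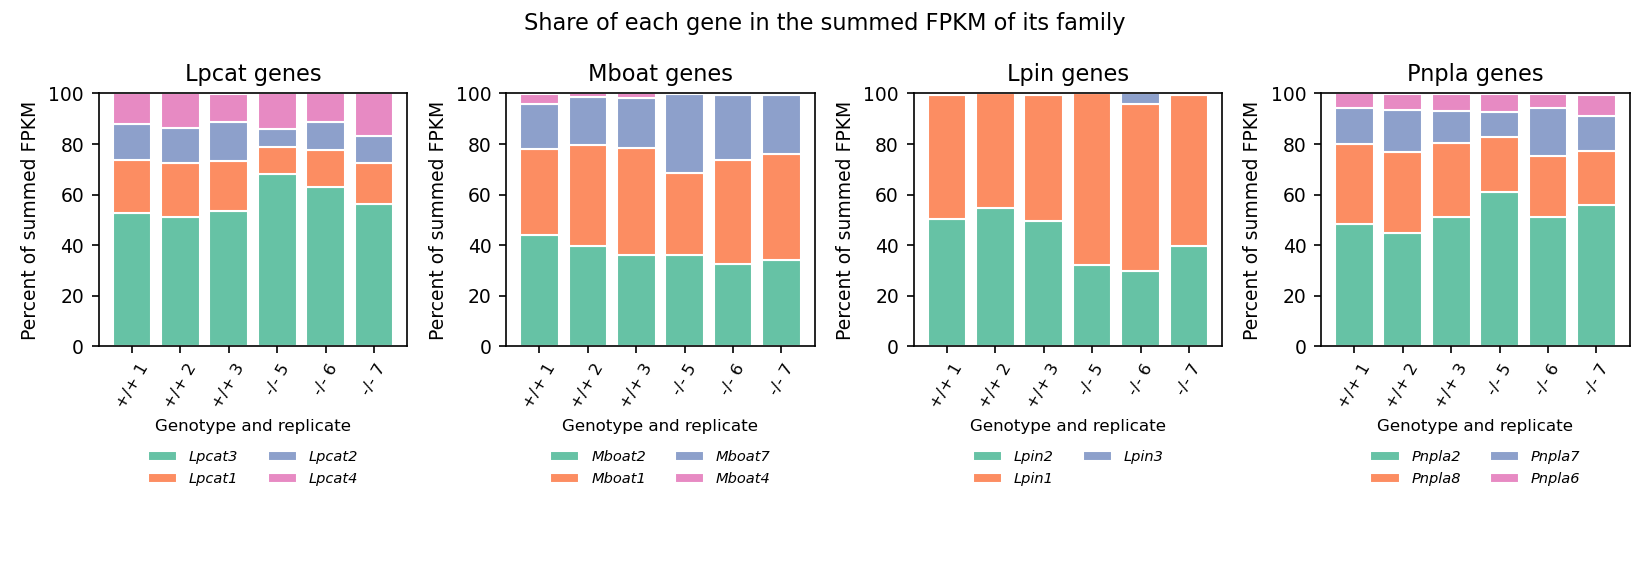
Percent of the summed FPKM of a name family held by each gene (stacked bars from 0 to 100), in each of the 6 libraries, with genes under 1 percent in both genotypes left out. The Lpcat3 share is 51 to 53.4 percent in Gdpd3+/+ and 56.2 to 68 percent in Gdpd3-/-, and the Lpin1 share 45.4 to 49.9 and 59.7 to 67.9 percent.

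Promoter sequence is shown for the pair of Lpcat genes that lay lower together and for Mboat7, an acyltransferase of the same cycle that lay higher. The windows come from RefSeq on GRCm38.p6, start 250 bases before the gene's start and end 50 bases after it, and read 5′ to 3′ on the gene's own strand. Capitals mark the motifs GGGCGG (the GC box, or CCGCCC on the other strand) and TATAAA (the TATA box, or TTTATA).
Lpcat1 promoter, chr13:73466981-73467280, plus strand: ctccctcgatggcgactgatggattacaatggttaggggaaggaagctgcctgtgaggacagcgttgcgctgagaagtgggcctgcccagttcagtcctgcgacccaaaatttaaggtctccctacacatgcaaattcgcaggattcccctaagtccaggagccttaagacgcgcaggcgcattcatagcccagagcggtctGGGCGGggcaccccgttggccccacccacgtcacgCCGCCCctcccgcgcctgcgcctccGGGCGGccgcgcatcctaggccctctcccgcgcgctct
Lpcat2 promoter, chr8:92855083-92855382, plus strand: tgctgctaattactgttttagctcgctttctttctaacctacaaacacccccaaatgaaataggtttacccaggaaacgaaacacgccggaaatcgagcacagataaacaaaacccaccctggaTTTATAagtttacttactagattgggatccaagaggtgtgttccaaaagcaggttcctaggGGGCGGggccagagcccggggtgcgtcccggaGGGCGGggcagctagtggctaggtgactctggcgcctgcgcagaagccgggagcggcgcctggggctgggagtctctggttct
Mboat7 promoter, chr7:3692937-3693236, minus strand: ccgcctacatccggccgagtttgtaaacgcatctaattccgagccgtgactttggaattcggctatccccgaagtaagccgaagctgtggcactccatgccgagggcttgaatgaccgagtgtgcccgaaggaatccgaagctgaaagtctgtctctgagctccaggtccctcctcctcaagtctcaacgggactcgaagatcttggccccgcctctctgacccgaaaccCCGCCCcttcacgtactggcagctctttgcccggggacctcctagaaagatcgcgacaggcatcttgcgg
Lpcat1 held 3 matches, all GC boxes. Lpcat2 held 2 GC boxes and 1 TATA box, and Mboat7 held 1 GC box. The other motifs searched on both strands, GTAAACA (the FOXO core, or TGTTTAC) and CACGTG (the E-box, its own reverse complement), were in none of these 3 windows.

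Of the 55 genes, 49 had at least 1 promoter window by current symbol, 61 windows in all, some of which overlap. The GC box was in 34 of the 61 windows (55.7 percent) and in 35.7 percent of all 32851 windows. The TATA box was in 4 windows (6.56 percent, against 13.6 percent of all windows), among them those of Lpcat2 and Pla2g4a. The E-box was in 6 windows (9.84 percent, against 7.15 percent), and the FOXO core in 3 (4.92 percent, against 3.65 percent), those of Lpin2, Pla2g2c and Pnpla7. A match describes letters in the window and is not a measured binding site.

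The MBOAT enzymes are membrane-bound acyltransferases. Mboat7, which returns arachidonic acid to lysophosphatidylinositol, was at 4.21, 4.19 and 4.42 FPKM in the Gdpd3+/+ and 8.87, 6.6 and 5.7 FPKM in the Gdpd3-/- libraries. Each Gdpd3-/- library was higher, with replicate 5 the highest, with a log2 fold change of 0.69 (SE 0.20, 95% interval 0.20 to 1.17, limma adjusted p = 0.119). Relative to the median of all genes this was 0.45. Without Gdpd3-/- replicate 7 it passed, with a log2 fold change of 0.83 (limma adjusted p = 0.0445, range over the alternatives 0.0445 to 0.352). Its exons share 149 bases with Tsen34 on the opposite strand. Mboat1 was at 7.94, 8.77 and 9.28 FPKM in the Gdpd3+/+ libraries and 9.19, 10.5 and 10.1 in the Gdpd3-/- libraries and Mboat2 at 10.3, 8.76 and 7.93 FPKM in the Gdpd3+/+ libraries and 10.3, 8.29 and 8.26 in the Gdpd3-/- libraries, and in both the genotypes overlapped. The Mboat1 log2 fold change of 0.20 (SE 0.13, limma adjusted p = 0.426) turned to -0.022 under TMM scaling. Mboat4, the ghrelin acyltransferase, which acts on a peptide hormone and not on a lysophospholipid, was low at 0.978, 0.316 and 0.364 FPKM in the Gdpd3+/+ libraries and 0, 0.134 and 0.108 in the Gdpd3-/- libraries. It rested on 89.5, 36.5 and 41 estimated fragments in the Gdpd3+/+ libraries and 0, 9 and 5 in the Gdpd3-/- libraries.

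The AGPAT enzymes add the chain that turns lysophosphatidic acid, the product of Gdpd3, into phosphatidic acid. Agpat2 was the most abundant at 40.5, 42.7 and 36.3 FPKM in the Gdpd3+/+ libraries and 42.3, 40.4 and 43.6 in the Gdpd3-/- libraries, with a log2 fold change of 0.081 (SE 0.10, limma adjusted p = 0.633). The genotypes overlapped, and its 95 percent interval ran from -0.16 to 0.32, although its sign turned under TMM scaling (-0.14) and quantile normalization (-0.059). Agpat3, the largest change of the family, was at 4.29, 4.49 and 5.03 FPKM in the Gdpd3+/+ and 7.81, 8.62 and 6.55 FPKM in the Gdpd3-/- libraries. No Gdpd3+/+ library reached the lowest Gdpd3-/- library. Mean FPKM was 4.6 ± 0.381 for Gdpd3+/+ and 7.66 ± 1.04 for Gdpd3-/- (SD, n = 3 each), with a log2 fold change of 0.72 (SE 0.17, 95% interval 0.31 to 1.13, limma adjusted p = 0.0866), and 0.48 relative to the median of all genes. Without Gdpd3-/- replicate 7 it passed, with a log2 fold change of 0.82 (limma adjusted p = 0.0302, range over the alternatives 0.0302 to 0.304).

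Agpat1 moved in opposite ways within the Gdpd3-/- group. It was at 3.5, 4.38 and 3.82 FPKM in the Gdpd3+/+ libraries and 6.86, 2.4 and 7.09 in the Gdpd3-/- libraries, so replicates 5 and 7 lay above and replicate 6 below every Gdpd3+/+ library. Agpat4 was at 6.53, 6.38 and 5.1 FPKM in the Gdpd3+/+ libraries and 6.16, 6.15 and 8.2 in the Gdpd3-/- libraries and Agpat5 at 8.56, 9.21 and 9.68 FPKM in the Gdpd3+/+ libraries and 8.79, 9.87 and 10.04 in the Gdpd3-/- libraries, overlapping in both cases. Agpat6 and Agpat9 are older names of the glycerol-3-phosphate acyltransferases Gpat4 and Gpat3, which catalyse the preceding step. Agpat6 was at 19.3, 18.5 and 19.1 FPKM in the Gdpd3+/+ libraries and 18.7, 16.5 and 17.5 in the Gdpd3-/- libraries, a close range over all 6 libraries. Agpat9 was at 0.829, 0.143 and 0.109 FPKM in the Gdpd3+/+ libraries and 1.08, 0 and 0.523 in the Gdpd3-/- libraries, and 1052 of its exonic bases are shared with 4930458D05Rik on the opposite strand. The summed FPKM of the family was 83.5, 85.8 and 79.1 FPKM in the Gdpd3+/+ libraries and 91.7, 83.9 and 93.5 FPKM in the Gdpd3-/- libraries.

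Among the phospholipases A, Pla2g16 stood nearest to the threshold. Pla2g16, now Plaat3, is a phospholipase A1/A2 and acyltransferase best known from fat tissue, and it was at 7.53, 7.04 and 8.34 FPKM in the Gdpd3+/+ and 12, 12.1 and 12.5 FPKM in the Gdpd3-/- libraries. The Gdpd3-/- values lay close to each other and above all Gdpd3+/+ values. Mean FPKM was 7.63 ± 0.656 for Gdpd3+/+ and 12.2 ± 0.236 for Gdpd3-/- (SD, n = 3 each), a ratio of 1.6, with a log2 fold change of 0.67 (SE 0.13, 95% interval 0.37 to 0.98, limma adjusted p = 0.0577), and 0.43 relative to the median of all genes. It passed in 4 of 17 alternatives, where its adjusted p was 0.042 among genes with a mean of at least 1 FPKM, 0.0488 among protein_coding genes, 0.0342 with voom and 0.0347 without Gdpd3-/- replicate 7, and over all alternatives it ranged up to 0.265. The fold change was above 0 in all 17, most of which could not turn it because its genotypes did not overlap. The adipocyte and muscle sums above were higher in the same libraries, and their part in the level of Pla2g16 was not tested.

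The cytosolic phospholipases A2 release arachidonic acid inside the cell. Pla2g4a, the principal enzyme of the group, was at 17.9, 20.6 and 19.9 FPKM in the Gdpd3+/+ libraries and 16.2, 24.4 and 19.6 in the Gdpd3-/- libraries, with a log2 fold change of 0.023 (SE 0.17, limma adjusted p = 0.943). Its genotypes overlapped. Pla2g4b was at 1.122, 1.23 and 0.954 FPKM in the Gdpd3+/+ libraries and 1.59, 2.76 and 1.1597 in the Gdpd3-/- libraries, and its identifier now carries a readthrough name, Gm28042. Pla2g4c, named after its values were seen, was at 1.003, 1.182 and 1.26 FPKM in the Gdpd3+/+ and 0.1, 0.0293 and 1.157 FPKM in the Gdpd3-/- libraries. It was thus near 0 in Gdpd3-/- replicates 5 and 6, on 8 and 4 estimated fragments, and at the Gdpd3+/+ level in replicate 7. Its log2 fold change of -1.96 (SE 0.86, limma adjusted p = 0.241) became a log2 fold change of -2.95 (limma adjusted p = 0.0158, range over the alternatives 0.0158 to 0.966) without replicate 7. Pla2g4e was at 0.00866, 0.00229 and 0 FPKM in the Gdpd3+/+ libraries and 0.189, 0.627 and 0.137 in the Gdpd3-/- libraries, on 3, 1 and 0 estimated fragments in the Gdpd3+/+ libraries and 28, 159 and 24 in the Gdpd3-/- libraries. Pla2g4f never exceeded 0.0293 FPKM.

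Secreted phospholipases A2 act outside the cell and need calcium. Pla2g12a, the only abundant gene of the group and the highest of all 55 by mean, was at 35.4, 33.8 and 34.8 FPKM in the Gdpd3+/+ and 51.1, 67.2 and 32.1 FPKM in the Gdpd3-/- libraries. Gdpd3-/- replicates 5 and 6 were above and replicate 7 below every Gdpd3+/+ library, so the genotypes overlapped, with a log2 fold change of 0.47 (SE 0.26, 95% interval -0.14 to 1.08, limma adjusted p = 0.327). Without replicate 7 it passed, with a log2 fold change of 0.76 (limma adjusted p = 0.0284, range over the alternatives 0.0284 to 0.582). Without both replicates 5 and 6, a set chosen after seeing the data that leaves 1 Gdpd3-/- library, its sign turned (log2 fold change -0.11). Its 3 Gdpd3-/- values stood in the same order as the muscle sums of 11935, 17127 and 2289, whose part in its level was not tested. Those of Agpat3, Pla2g4b and Pla2g4e also stood in that order, while those of Lpin1 did not. Such an order of 3 values was not compared over all genes. All other secreted enzymes had a mean below 1 FPKM.

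Several of these low genes were listed above 0 in some Gdpd3-/- libraries and at 0 in others. Pla2g2f was listed at 0 in all 3 Gdpd3+/+ libraries and at 2.02, 1.45 and 0 FPKM in the Gdpd3-/- libraries, on 106 and 130 estimated fragments in replicates 5 and 6. Pla2g2d was at 0.000538, 0.043 and 0 FPKM in the Gdpd3+/+ libraries and 2.52, 0 and 0.429 in the Gdpd3-/- libraries, and Pla2g10 at 0, 0.0742 and 0 FPKM in the Gdpd3+/+ libraries and 0, 1.9 and 0.159 in the Gdpd3-/- libraries. Pla2g2e was at 0, 0 and 0 FPKM in the Gdpd3+/+ libraries and 0.256, 0.269 and 0 in the Gdpd3-/- libraries. In the other direction, Pla2g3 was at 0.364, 0.0352 and 0.199 FPKM in the Gdpd3+/+ libraries and 0, 0 and 0 in the Gdpd3-/- libraries and Pla2g1b at 0.0282, 0 and 0.137 FPKM in the Gdpd3+/+ libraries and 0, 0 and 0 in the Gdpd3-/- libraries, with no fragment in any Gdpd3-/- library. Pla2g5 did not exceed 0.114 FPKM. The fitted fold changes of those tested, drawn in the plot of fold changes, depend on the pseudocount of 0.1 and are no bounds, since a group at or near 0 sets none.

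Genes that are silent in most tissues were also listed above 0 more often in the Gdpd3-/- libraries. Of 1113 olfactory receptor genes (names starting with Olfr), the share above 0 was 2.25, 2.88 and 3.32 percent in the Gdpd3+/+ libraries and 8.18, 11.1 and 13.5 percent in the Gdpd3-/- libraries. Of 328 vomeronasal receptor genes (names starting with Vmn), it was 3.66, 6.4 and 3.96 percent in the Gdpd3+/+ libraries and 35.7, 35.4 and 35.1 percent in the Gdpd3-/- libraries. Of the 21 genes of the phospholipid set with a mean below 1 FPKM, 11, 11 and 9 were above 0 in the Gdpd3+/+ and 11, 11 and 10 in the Gdpd3-/- libraries, with a summed FPKM of 3.35, 1.99 and 2.26 and of 6.53, 5.35 and 3.08. The count was thus close between the genotypes although the Gdpd3-/- libraries were shallower, and it was not adjusted for depth. The summed level was higher in Gdpd3-/- replicates 5 and 6. The part of that background in the low secreted genes was not tested.

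Of the other phospholipases A2, Pla2g15 of the lysosome was at 16.1, 15.9 and 12.9 FPKM in the Gdpd3+/+ libraries and 14, 11.3 and 16.2 in the Gdpd3-/- libraries. Pla2g7, which hydrolyses platelet-activating factor in plasma, was at 6.06, 6.998 and 9.87 FPKM in the Gdpd3+/+ libraries and 7.63, 5.85 and 5.78 in the Gdpd3-/- libraries and shares 319 exonic bases with 1700071M16Rik on the opposite strand. The calcium-independent Pla2g6 was at 3.81, 3.38 and 3.56 FPKM in the Gdpd3+/+ libraries and 2.1, 4.72 and 5.88 in the Gdpd3-/- libraries. All 3 overlapped between genotypes, and for Pla2g6 the Gdpd3-/- replicates spanned both sides of the Gdpd3+/+ range.

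The patatin-like enzymes cut stored fat and phospholipids. Pnpla2, the triglyceride lipase known as ATGL, was at 34.7, 33.6 and 38.6 FPKM in the Gdpd3+/+ and 49.7, 43.4 and 41.9 FPKM in the Gdpd3-/- libraries. Every Gdpd3-/- library was higher, with a log2 fold change of 0.33 (SE 0.11, 95% interval 0.069 to 0.60, limma adjusted p = 0.149). Relative to the median of all genes the change was 0.094, and under TMM scaling the fold change was 0.11. Pnpla8, a calcium-independent phospholipase of mitochondria and peroxisomes, was at 22.8, 23.9 and 22 FPKM in the Gdpd3+/+ and 17.4, 20.5 and 16 FPKM in the Gdpd3-/- libraries. Here each Gdpd3-/- library was lower, with replicate 7 the lowest, with a log2 fold change of -0.36 (SE 0.13, 95% interval -0.66 to -0.055, limma adjusted p = 0.168), or -0.60 relative to that median. Pnpla2 thus held 48.4, 44.9 and 51.1 percent in the Gdpd3+/+ libraries and 61.2, 51.2 and 56 percent in the Gdpd3-/- libraries of the Pnpla sum, and Pnpla8 held 31.8, 32 and 29.2 percent in the Gdpd3+/+ libraries and 21.5, 24.2 and 21.3 percent in the Gdpd3-/- libraries. Both are among the 20 of 55 shares without overlap, and for Pnpla2 the gap between 51.1 and 51.2 percent was far smaller than the SD of either group (3.1 and 5.01). The fit without both Gdpd3-/- replicates 5 and 6, chosen after seeing the data, leaves 1 Gdpd3-/- library and gave Pnpla8 a log2 fold change of -0.52. Over the other alternatives its adjusted p in limma ranged from 0.078 to 0.442.

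Pnpla7 and Pnpla6, lysophospholipases that act on lysophosphatidylcholine, overlapped. Pnpla7 was at 10.04, 12.3 and 9.65 FPKM in the Gdpd3+/+ libraries and 8.08, 16.1 and 10.4 in the Gdpd3-/- libraries, with Gdpd3-/- replicate 6 the highest and replicate 5 the lowest of the 6. Pnpla6 was at 4.17, 4.82 and 5.13 FPKM in the Gdpd3+/+ libraries and 5.9, 4.63 and 6.16 in the Gdpd3-/- libraries. Pnpla5, Pnpla3 and Pnpla1 did not exceed 0.376, 0.103 and 0.0808 FPKM in any library.

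The Lypla enzymes were first described as lysophospholipases and also remove palmitate from proteins. Lypla2 was the most abundant at 27.3, 27.9 and 26.8 FPKM in the Gdpd3+/+ libraries and 29.4, 25.5 and 31.3 in the Gdpd3-/- libraries, with a log2 fold change of 0.065 (SE 0.11, limma adjusted p = 0.733). Its genotypes overlapped, and its sign turned under TMM scaling (-0.15) and quantile normalization (-0.039). Lypla1 was at 23.9, 20.2 and 21.1 FPKM in the Gdpd3+/+ and 19.3, 15.7 and 20.01 FPKM in the Gdpd3-/- libraries. The highest Gdpd3-/- library was 20.01 and the lowest Gdpd3+/+ library 20.2 FPKM, a gap far smaller than the SD of either group (1.91 and 2.28), with a log2 fold change of -0.25 (SE 0.14, 95% interval -0.57 to 0.078, limma adjusted p = 0.331). The Lypla1 fold change was -0.14 without Gdpd3-/- replicate 6 and -0.47 under TMM scaling. The exons of Lypla1 share 196 bases with Tcea1 on the same strand. Lyplal1 was at 4.02, 4.35 and 4.3 FPKM in the Gdpd3+/+ libraries and 3.98, 2.49 and 4.76 in the Gdpd3-/- libraries and overlapped.

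The lipins dephosphorylate phosphatidic acid and also act as nuclear cofactors. Lpin1 was at 5.78, 5.51 and 5.64 FPKM in the Gdpd3+/+ and 7.53, 10.8 and 8.6 FPKM in the Gdpd3-/- libraries. All 3 Gdpd3-/- libraries lay higher, with replicate 6 the highest. Mean FPKM was 5.64 ± 0.137 for Gdpd3+/+ and 8.97 ± 1.66 for Gdpd3-/- (SD, n = 3 each), with a log2 fold change of 0.64 (SE 0.17, 95% interval 0.23 to 1.06, limma adjusted p = 0.101), and 0.40 relative to the median of all genes. Lpin1 is abundant in muscle and fat, and the muscle sums above were higher in the same libraries, whose part in its level was not tested. The fit without both Gdpd3-/- replicates 5 and 6, chosen after seeing the data, leaves 1 Gdpd3-/- library and gave Lpin1 a log2 fold change of 0.60. Over the other alternatives the adjusted p of Lpin1 in limma ranged from 0.0672 to 0.336. Lpin2, the form common in blood cells, was at 5.9, 6.63 and 5.59 FPKM in the Gdpd3+/+ and 3.56, 4.87 and 5.7 FPKM in the Gdpd3-/- libraries. It overlapped through replicate 7, with a log2 fold change of -0.37 (SE 0.22, limma adjusted p = 0.352). The Lpin2 fold change was -0.19 without Gdpd3-/- replicate 5 and -0.59 under TMM scaling. Lpin3 did not exceed 0.691 FPKM.

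Lpin1 held 49.3, 45.4 and 49.9 percent in the Gdpd3+/+ libraries and 67.9, 66 and 59.7 percent in the Gdpd3-/- libraries of the summed Lpin FPKM. Lpin2 held 50.2, 54.6 and 49.5 percent in the Gdpd3+/+ libraries and 32.1, 29.8 and 39.6 percent in the Gdpd3-/- libraries. Both shares are among the 20 of 55 without overlap, they nearly sum to the whole, and the pair was chosen after its values were seen.

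Phospholipases D release phosphatidic acid from phosphatidylcholine, which is the known role of Pld1 and Pld2. Pld1 was at 2.02, 1.79 and 1.997 FPKM in the Gdpd3+/+ and 0.22, 1.17 and 1.26 FPKM in the Gdpd3-/- libraries. Each Gdpd3-/- library was lower, and replicate 5 was far below the rest at 40.1 estimated fragments, with a log2 fold change of -1.31 (SE 0.60, 95% interval -2.74 to 0.12, limma adjusted p = 0.255). Without replicate 5 the fold change was -0.63, with an adjusted p of 0.201 in limma. Pld2 was at 0.929, 1.33 and 1.1 FPKM in the Gdpd3+/+ and 2.53, 1.83 and 1.64 FPKM in the Gdpd3-/- libraries. Each Gdpd3-/- library was higher, with a log2 fold change of 0.78 (SE 0.31, 95% interval 0.036 to 1.52, limma adjusted p = 0.209). The Pld2 fold change was 0.35 under quantile normalization and 0.50 with a pseudocount of 1. Its exons share 438 bases with Gm10418 on the opposite strand, so its reads cannot be told apart from those of that gene over this stretch. The pair thus differed in direction, with neither past the threshold.

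Pld3 and Pld4, which are nucleases of endosomes and lysosomes despite their names, were the most abundant of the family. Pld3 was at 20.8, 18.2 and 20.6 FPKM in the Gdpd3+/+ libraries and 21.9, 14.6 and 20.8 in the Gdpd3-/- libraries, with a log2 fold change of -0.075 (SE 0.18, limma adjusted p = 0.812), and its sign turned without Gdpd3-/- replicate 6 (0.11). Pld4 was at 9.89, 9.99 and 9.24 FPKM in the Gdpd3+/+ and 15.4, 9.72 and 16.6 FPKM in the Gdpd3-/- libraries. Gdpd3-/- replicates 5 and 7 lay above all Gdpd3+/+ libraries and replicate 6 within them, with a log2 fold change of 0.48 (SE 0.22, limma adjusted p = 0.252). Without replicate 6 it passed, with a log2 fold change of 0.71 (limma adjusted p = 0.0481). Its adjusted p in limma ranged from 0.0481 to 0.535 over the alternatives, apart from the fit without both Gdpd3-/- replicates 5 and 6. Pld6 of mitochondria was at 3.67, 2.43 and 3.05 FPKM in the Gdpd3+/+ libraries and 7.1, 4.81 and 3.31 in the Gdpd3-/- libraries, and Pld5 did not exceed 0.121 FPKM.

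**Figure D5:**
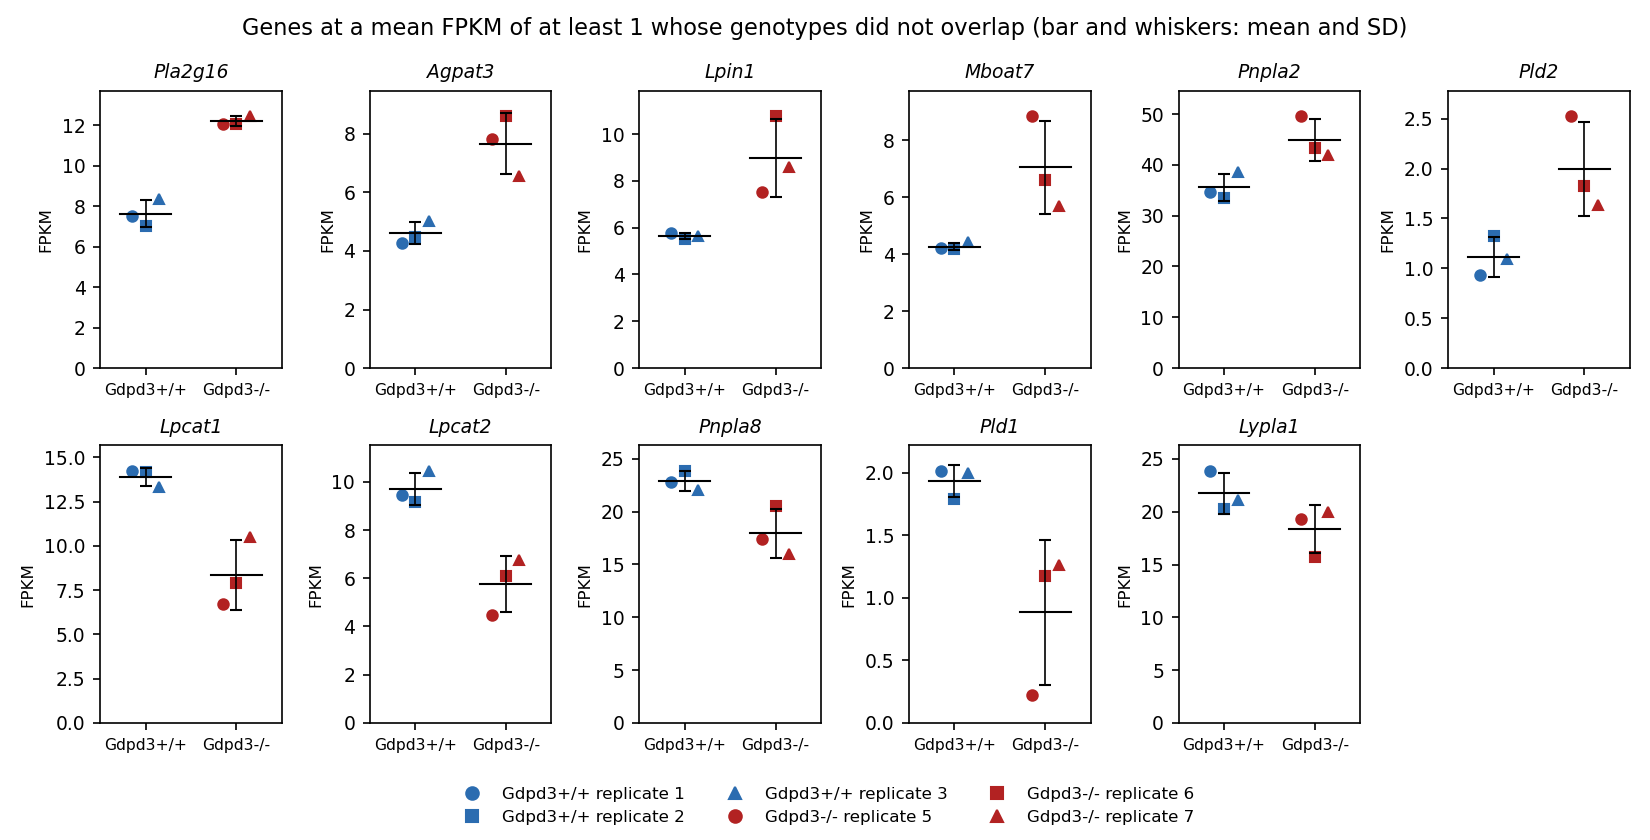
FPKM (linear axes from 0) of the 11 genes with a mean of at least 1 FPKM whose genotypes did not overlap, 6 higher in Gdpd3-/- in the upper row and 5 lower in the lower row. Symbols are libraries, the horizontal bar is the mean and the whiskers the SD (n = 3). Gdpd3-/- replicates scatter more than Gdpd3+/+ replicates in most panels, Pla2g16 being an exception.

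On mm9, Gdpd3 lies at chr7:133909928-133919157 on the plus strand (ENSMUSG00000030703.7). Of the 11 genes whose genotypes did not overlap, Pla2g16 lies at chr19:7631949-7663035 on the plus strand (ENSMUSG00000060675.7), Agpat3 at chr10:77731923-77815234 on the minus strand (ENSMUSG00000001211.8) and Lpin1 at chr12:16542475-16596576 on the minus strand (ENSMUSG00000020593.7). Mboat7 lies at chr7:3629392-3645125 on the minus strand (ENSMUSG00000035596.8), Pnpla2 at chr7:148641097-148646642 on the plus strand (ENSMUSG00000025509.8) and Pld2 at chr11:70353566-70371612 on the plus strand (ENSMUSG00000020828.6). Those lower in Gdpd3-/- are Lpcat1 at chr13:73604645-73653870 on the plus strand (ENSMUSG00000021608.8), Lpcat2 at chr8:95379249-95443178 on the plus strand (ENSMUSG00000033192.3), Pnpla8 at chr12:45322357-45413330 on the plus strand (ENSMUSG00000036257.8), Pld1 at chr3:27837602-28032284 on the plus strand (ENSMUSG00000027695.9) and Lypla1 at chr1:4797869-4876851 on the plus strand (ENSMUSG00000025903.8). The 55 genes fall on 16 chromosomes.

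Some of the genes lie side by side in the genome. On chromosome 4 Pla2g2c, Pla2g2f, Pla2g2d, Pla2g5 and Pla2g2e form a run in which successive genes are separated by 4400 to 18108 bases (mm9). All 5 had a mean below 1 FPKM. On chromosome 2 Pla2g4e, Pla2g4d and Pla2g4f follow each other at gaps of 20259 and 10759 bases, with Pla2g4b 123378 bases before Pla2g4e, and of these Pla2g4b alone had a mean of at least 1 FPKM. Pnpla5 and Pnpla3 are 44640 bases apart on chromosome 15 and both were low. No neighbours shared exonic bases.

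Enzymes of the same pathways outside these families were read from the same fit. Of 3 other glycerol-3-phosphate acyltransferase genes, 20 genes of the Kennedy pathway and 8 of the lysophospholipase D group, 0 passed the adjusted threshold in limma (1.71 percent of all genes did), with 0, 5 and 2 at an unadjusted p under 0.05 (22.2 percent of all genes). The 24 other lysophospholipid acyltransferase and remodelling genes also gave 0 of 23 tested, with 6 at an unadjusted p under 0.05, beside the same shares of all genes. The most abundant gene of each list was Gnpat, Cdipt, Gde1 and Aup1. Cdipt, which makes phosphatidylinositol, was at 37.1, 37.3 and 33.3 FPKM in the Gdpd3+/+ libraries and 49.97, 63.6 and 47.2 in the Gdpd3-/- libraries, with a log2 fold change of 0.57 (SE 0.14, limma adjusted p = 0.0868). It lay higher in each Gdpd3-/- library, and Gnpat at 38.2, 42.2 and 37.2 FPKM in the Gdpd3+/+ libraries and 31.1, 25.6 and 41.4 in the Gdpd3-/- libraries overlapped. Gde1 was at 44.3, 39.4 and 36.5 FPKM in the Gdpd3+/+ libraries and 47.7, 59.8 and 40.3 in the Gdpd3-/- libraries and Aup1 at 82.3, 87.1 and 80.3 FPKM in the Gdpd3+/+ libraries and 82.1, 108 and 84.6 in the Gdpd3-/- libraries, and both overlapped.

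Of 23 lipid phosphate phosphatase and diacylglycerol genes, 1 fell and 0 rose, against 1.71 percent of all genes past the adjusted threshold, and 6 had an unadjusted p under 0.05, against 22.2 percent of all genes. Mogat2, which acylates monoacylglycerol, was at 19.1, 23.2 and 20.8 FPKM in the Gdpd3+/+ and 2.04, 1.99 and 3.08 FPKM in the Gdpd3-/- libraries. It fell in all 3 Gdpd3-/- libraries, with a log2 fold change of -3.12 (SE 0.21, 95% interval -3.62 to -2.62, limma adjusted p = 0.00562). The adjusted p was 0.0705 without Gdpd3+/+ replicate 1 and 0.0528 without Gdpd3+/+ replicate 2, and under 0.05 in the other 15 alternatives. Ppapdc1b, the most abundant of the list, was at 26.1, 26.3 and 25.2 FPKM in the Gdpd3+/+ libraries and 20.05, 19.4 and 18 in the Gdpd3-/- libraries, with a log2 fold change of -0.43 (SE 0.099, limma adjusted p = 0.0806), with no overlap between genotypes. Ppapdc1b passed under TMM scaling (-0.65, limma adjusted p = 0.0374) and without Gdpd3-/- replicate 7 (-0.39, limma adjusted p = 0.045). Its adjusted p in limma reached 0.306 without Gdpd3+/+ replicate 3.

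A list of 19 genes held partners and regulators of phospholipase A2 together with leukotriene genes such as Lta4h and Alox5ap. Of the 19, 1 rose and 2 fell, where 1.71 percent of all genes passed the adjusted threshold. An unadjusted p under 0.05 in limma was seen for 12, against 22.2 percent of all genes. S100a10, a binding partner of annexin A2 and of cytosolic phospholipase A2, was at 48.8, 52.4 and 54.6 FPKM in the Gdpd3+/+ and 122.7, 105 and 102 FPKM in the Gdpd3-/- libraries. It rose in all 3 Gdpd3-/- libraries, with a log2 fold change of 1.08 (SE 0.11, 95% interval 0.82 to 1.33, limma adjusted p = 0.0177). Anxa1, an annexin known as an inhibitor of phospholipase A2 action, was at 262, 241 and 255 FPKM in the Gdpd3+/+ and 149, 111 and 114 FPKM in the Gdpd3-/- libraries. It fell in all 3, with a log2 fold change of -1.03 (SE 0.13, 95% interval -1.35 to -0.72, limma adjusted p = 0.0287). Lta4h, which makes leukotriene B4, was at 270, 292 and 284 FPKM in the Gdpd3+/+ and 116, 114 and 146 FPKM in the Gdpd3-/- libraries. It also fell in all 3, with a log2 fold change of -1.18 (SE 0.12, 95% interval -1.47 to -0.89, limma adjusted p = 0.0196). For these 3 genes the adjusted p in limma lay above 0.05 with any Gdpd3+/+ library left out and without the intensity trend. It reached 0.177 for Anxa1, 0.142 for S100a10 and 0.145 for Lta4h. Their directions held in all 17 alternatives, most of which cannot turn genes whose genotypes do not overlap. Alox5ap, the most abundant of the list by mean, was at 202, 192 and 200 FPKM in the Gdpd3+/+ libraries and 306, 232 and 208 in the Gdpd3-/- libraries, with a log2 fold change of 0.31 (SE 0.15, limma adjusted p = 0.279). The Alox5ap fold change was 0.15 without Gdpd3-/- replicate 5 and 0.089 under TMM scaling. The neutrophil sum given above was lower in the same libraries as Anxa1 and Lta4h, and its part in these changes was not tested.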

How the data were processed

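RNA of 3 Gdpd3+/+ and 3 Gdpd3-/- LT-CML stem cell libraries was measured by SMART-Seq with paired-end reads of 150 bases. The authors trimmed the reads (Trimmomatic, Trim Galore, cutadapt 1.16), mapped them to mm9 with STAR 2.6.1a, counted them with featureCounts 1.6.1 and deposited FPKM, which are fragments scaled to listed gene length and to mapped fragments. The strand setting is not stated. Their table of gene lengths in bases was used with the FPKM. A second deposited table holds the authors' own DESeq2 comparison (base mean, log2 fold change, its standard error, Wald statistic, p and adjusted p) and was not used.

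Genes with a mean of at least 0.05 FPKM (24689 of 36976) were tested on log2(FPKM + 0.1) with limma 3.58.1 (lmFit, eBayes with an intensity trend, R 4.3.3), genotype being the only term, and p-values were adjusted over all genes by Benjamini-Hochberg. Values of single genes were also compared by a two-sided exact permutation test of 3 libraries against 3, whose smallest possible p is 0.1 (SciPy 1.17.1, NumPy 2.4.6, pandas 2.3.3). Fragments per gene were estimated from FPKM and length. The steps between the FPKM values gave them to 2 decimals within 0.002 fragments for genes below 1000 fragments. Many are fractional (47.2 to 55.2 percent of listed values were whole), so they are estimates of counts. A fragment number gives no measure of the spread between libraries.

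Other settings tried were no filter, pseudocounts of 0.01 and 1, a mean of at least 1 FPKM, TMM scaling, quantile normalization, no intensity trend, array weights, protein_coding genes only, and leaving out each library. Voom on estimated fragments and leaving out both Gdpd3-/- replicates 5 and 6 were chosen after seeing the data. So were the family shares and the genes named outside the rule below, such as Pla2g4c, Pla2g4e, Pld4, Lpin2, Cdipt and the secreted phospholipases A2. The rule named Gdpd3, genes with an adjusted p under 0.05, genes with a mean of at least 1 FPKM and no overlap between genotypes, and the most abundant and most changed gene of each family. From the 6 pathway lists it named genes past the threshold and the most abundant, and from the cell marker lists reported the most abundant, with sums. The 55 genes and the lists were chosen with earlier results of these data known. The lists found all genes except Mzb1 of the B and plasma cell list. Promoter windows and motifs were read from RefSeq on GRCm38.p6, while gene positions are on mm9 as deposited. Protein sequences were not among the references provided for this work, so the planned search for catalytic motifs was not run.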

Additional observations from a re-analysis of the deposited data

How the results depend on the processing

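No paired analysis was possible because the libraries carry replicate numbers 1, 2 and 3 in Gdpd3+/+ and 5, 6 and 7 in Gdpd3-/-, which share none. The 422 genes of the whole table past an adjusted p of 0.05 in limma became 225 with a pseudocount of 1, 213 with no filter, 673 at a mean of at least 1 FPKM, 153 with no intensity trend, 240 with array weights, and, for the alternatives chosen after seeing the data, 906 with voom and 2294 without both Gdpd3-/- replicates 5 and 6. Leaving out single libraries gave 0 (without Gdpd3+/+ replicate 1) to 3413 (without Gdpd3-/- replicate 7), with 1, 21 and 187 without Gdpd3+/+ replicate 2, Gdpd3+/+ replicate 3 and Gdpd3-/- replicate 5. The split into 270 higher and 152 lower became 112 and 254 under TMM scaling and 119 and 206 under quantile normalization. Of the 55 genes of the phospholipid set, 0 passed, and this became 1 at a mean of at least 1 FPKM, 1 among protein_coding genes only (570 of 17034 in the whole table), 2 with voom and 4 without both Gdpd3-/- replicates 5 and 6 (Lpin1, Pnpla8, Pld4 and Pnpla5, the last at 0 in every Gdpd3+/+ library and resting on 16 estimated fragments in Gdpd3-/- replicate 7). Leaving out single libraries gave 0 to 9, the highest without Gdpd3-/- replicate 7, and 1 without Gdpd3-/- replicate 6. The median log2 fold change of 0.12 turned to -0.098 under TMM scaling and -0.031 under quantile normalization, and ranged from 0.056 to 0.17 with single libraries left out. Of 561 values of 33 single genes under the alternatives, 545 kept their direction, 16 turned, 19 came past the threshold and 16 were no longer past it, and 23 genes turned in none. Under TMM scaling the log2 fold changes of Mboat1 (-0.022), Lpcat3 (-0.13), Agpat2 (-0.14), Lypla2 (-0.15), Aup1 (-0.095) and Ly6a (-0.028) turned. Under quantile normalization those of Lpcat3 (-0.031), Agpat2 (-0.059), Lypla2 (-0.039), Aup1 (-0.060) and Ly6a (-0.0026) did. Without both Gdpd3-/- replicates 5 and 6, those of Pla2g12a (-0.11), Gnpat (0.082), Kit (0.084) and Pld3 (0.072) turned, and Pld3 (-0.18 to 0.11 with single libraries left out) also did without Gdpd3-/- replicate 6. Where 1 Gdpd3-/- library is left in that fit, it is assumed to vary like the Gdpd3+/+ libraries. Causes were not tested, apart from the smaller number of genes or libraries that some alternatives use by construction. Depth limits the low genes most, since 1 fragment on 1 kilobase is 0.0469 FPKM in Gdpd3-/- replicate 5.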
